A study of Homo sapiens with 6 samples.

Results

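The glycolysis and hypoxia genes are a set of 34 named genes, made of 3 glucose and lactate transporters, 17 glycolytic enzymes, 3 regulators of glycolytic flux and 11 other targets of the hypoxia-inducible factors (HIF). They are listed by name, and all 34 were found among the 60663 genes of the count table. RNA was sequenced from 5637 cells, an established line of human bladder cancer grown in RPMI1640 medium, in 6 libraries. All 6 libraries came from cells co-transfected for 48 h with dCas13b-FTO, an RNA-guided Cas13b without nuclease activity joined to the RNA N6-methyladenosine eraser FTO. In the control group of 3 libraries the fusion was paired with a control guide RNA, and in the HRAS guide group of 3 libraries with a guide against HRAS, a RAS family GTPase. The series text and the column names give FTO, whereas the sample titles name dCas13b alone, and no library without the construct was analysed here. Whether replicates were separate cultures is not stated, and the p-values reflect only how much the libraries vary, which may be technical.

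Glycolysis splits glucose into pyruvate in the cytosol. The cell imports glucose through GLUT proteins, makes lactate from pyruvate with lactate dehydrogenase, and exports lactate through monocarboxylate transporters. In oxygen, prolyl hydroxylases of the EGLN family mark HIF alpha subunits for destruction by the VHL ubiquitin ligase. When oxygen is short the alpha subunit pairs with ARNT, binds hypoxia response elements with the core ACGTG or GCGTG, and turns on glycolytic genes together with genes of angiogenesis, mitophagy, pH control and collagen processing. Many tumour cells express glycolytic genes at high levels even in oxygen, and RAS signalling is a known input to glycolysis.

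The promoters below are printed because they carry the HIF core, the sequence feature by which these genes are usually linked. RefSeq promoter windows (GRCh38.p14, 250 bases before to 50 bases after each annotated start) were found for 31 of the 34 genes, and SLC2A3, NDRG1 and BNIP3L had no entry. The 6 stretches of 60 bases shown are those with at least 2 matches to ACGTG, read on both strands, and with no annotated exon of any gene. Capitals mark ACGTG or its reverse complement CACGT, and in CACGTG both overlap and count as 2 matches.
SLC16A3, chr17:82228953-82229012, plus strand: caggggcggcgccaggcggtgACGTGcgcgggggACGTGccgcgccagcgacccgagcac
HK2, chr2:74834971-74835030, plus strand: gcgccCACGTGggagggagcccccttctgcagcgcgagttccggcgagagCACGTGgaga
GAPDH, chr12:6535156-6535215, plus strand: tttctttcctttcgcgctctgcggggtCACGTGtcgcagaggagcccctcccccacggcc
PGK1, chrX:78104028-78104087, plus strand: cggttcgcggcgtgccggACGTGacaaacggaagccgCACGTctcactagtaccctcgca
PFKFB3, chr10:6202797-6202856, plus strand: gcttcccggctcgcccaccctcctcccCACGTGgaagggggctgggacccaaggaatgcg
BNIP3, chr10:131982025-131982084, minus strand: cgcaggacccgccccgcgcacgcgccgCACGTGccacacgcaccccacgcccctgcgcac
HK2 held 4 such matches in its stretch, and the other 5 genes held 2 each. In GAPDH, PFKFB3 and BNIP3 the 2 matches are the same CACGTG read on both strands, and those of HK2 are likewise overlapping pairs. Only in SLC16A3 and PGK1 do the matches lie apart. ACGTG lay in the windows of 19 of the 31 genes (61.3%), against 24.9% of all 27305 genes in the table. Per window the share was 39.7% of 58, against 21.4% of 35116 windows of the same length. By role, 11 of 17 glycolytic enzymes (64.7%) and 5 of 9 other HIF targets (55.6%) had a match. The other core, GCGTG, occurred in 58.1% of these genes and in 40.6% of all genes, but per window in 39.7% against 36.5%. It occurred in 64.7% of the enzymes and in 33.3% of the other HIF targets. These shares describe the letters in the windows, and no binding was measured.

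Library totals ran from 24968702 to 32283370 counts, of which the 34 genes took 0.902% to 1.04%. HRAS itself (ENSG00000174775, GRCh38 chromosome 11, 532242 to 537287) had library-size-scaled counts (CPM, per 1e6 counts) of 146, 230 and 169 with the control guide and of 200, 167 and 184 with the HRAS guide, in the order of replicates 1 to 3, the order used for every gene below. The groups overlapped, and the log2 fold change (HRAS guide minus control guide throughout) was 0.01 ± 0.15 (SE), with a 95% interval of -0.32 to 0.35. Of 13 epithelial and urothelial markers 11 passed the filter on low counts, such as KRT5 (1778 ± 207 CPM with the control guide, SD, n = 3). The urothelial differentiation genes UPK1B and UPK3A were near 0, at means of 0.05 and 0.07 CPM, but UPK2 of the same family passed the filter. Of 16 markers of other cell types, COL1A1 (175 CPM) and SOX2 (105 CPM) were high, VWF (3.33), ACTA2 (2.96) and NEFL (1.99) were low but present, and the other 11 averaged under 1 CPM with the control guide. In all 0 of the 18 tested markers passed the test. The libraries also differed in how a gene's level depended on its GC content. Over all genes, which are no independent replicates, Spearman's rho between GC content and relative level was -0.46, 0.61 and -0.21 with the control guide and 0.27, -0.49 and 0.06 with the HRAS guide.

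Glycolytic enzymes made up most of the RNA of the set. CPM per kb of median transcript length, averaged over the 6 libraries, put ENO1 (enolase) first at 2951, then PKM (pyruvate kinase) at 1422, GAPDH (glyceraldehyde-3-phosphate dehydrogenase) at 1180 and LDHA (lactate dehydrogenase A) at 990. These 4 genes held 62.1% of the summed level of the 34 genes, and the 17 enzymes together 84.9%. The 11 other HIF targets held 6.10%. The lowest levels per kb were those of SLC2A3 (0.289), CA9 (0.659), EGLN1 (1.91) and ANKRD37 (2.76). Per kb of the longest transcript the same 4 enzymes were at the top, with 69.9% of the sum, but in another order, GAPDH at 813, ENO1 at 749, PKM at 639 and LDHA at 300.1. The length scale moved single genes by 1.03-fold (P4HA1) to 19.5-fold (PDK1), and the order of levels depends on it. The levels of ALDOA and LDHB are uncertain, because most of their coding bases are shared with another gene on the same strand. The order and the shares of the sum carry this uncertainty.

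**Figure D1:**
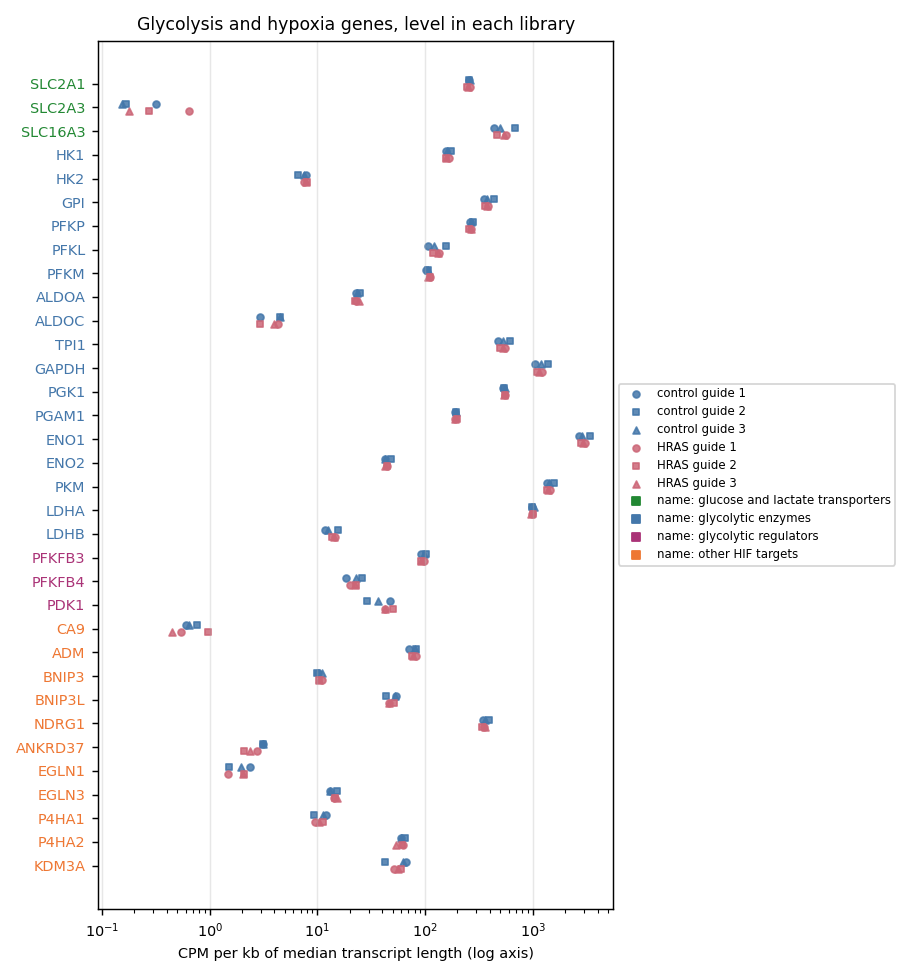
Level of each of the 34 genes in each library, in CPM per kb of median transcript length on a log axis, with control guide libraries in blue and HRAS guide libraries in red and names coloured by role. The libraries of both groups lie close together for nearly every gene, ENO1, PKM, GAPDH and LDHA are at the right, and SLC2A3 (mean 0.289) is at the left.

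No glycolysis or hypoxia gene differed detectably between the guides. Of the 34 genes, 33 passed the filter on low counts, all but SLC2A3, which had 42 counts in all. By edgeR's quasi-likelihood test with Benjamini-Hochberg adjustment, 0 of 33 passed, against 0.0101% of all 19836 genes tested (2 genes). At an unadjusted p under 0.05 the count was also 0 of 33, against 3.34% of all genes. DESeq2 called 0 members as well, but gave no adjusted p for SLC2A3, CA9 and ANKRD37. It called 0.0667% of the 37493 genes with any count, a number that includes genes without an adjusted p. The log2 fold changes ran from -0.38 ± 0.19 (SE) for ANKRD37 to 0.26 ± 0.16 for PDK1, with 9 above 0 and 24 below and a median of -0.04. Over all genes tested 9815 were above 0 and 10021 below, with a median of -0.0014. Uncorrected, that split depended on single libraries. Without control replicate 2, 21 of the 33 were above 0 and 12 below, and 12 genes changed sign. Without HRAS guide replicate 2, 14 were above 0 and 19 below. With the GC and length correction described below, 10 were above 0 and 23 below, and without control replicate 2 these counts were 13 and 20.

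The precision bounds how large an undetected difference could be. The 95% interval of the fold change, not adjusted for the number of genes, lay within 2-fold for all 33 genes and within 1.5-fold for 29, the exceptions being ALDOC, PDK1, CA9 and ANKRD37. It lay within 1.2-fold for 17 genes, 12 of the 17 enzymes and 3 of the 11 other HIF targets. A correction of each library for GC content and transcript length, applied to 19489 annotated genes, narrowed most intervals. After the correction 26 of 33 lay within 1.2-fold, including 15 of 17 enzymes and 7 of 11 other HIF targets. The intervals rest on a variance partly shared over all genes, so a narrower one need not mean that a gene's own libraries lay closer. The log2 SD over the 6 libraries fell in 22 of the 33 genes. That of SLC2A1 rose from 0.028 to 0.083, although its SE fell from 0.075 to 0.062. Again 0 of 33 passed (edgeR with the correction), against 0.2% of the genes tested (39 genes), and the smallest adjusted p of the set was 0.763.

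**Figure D2:**
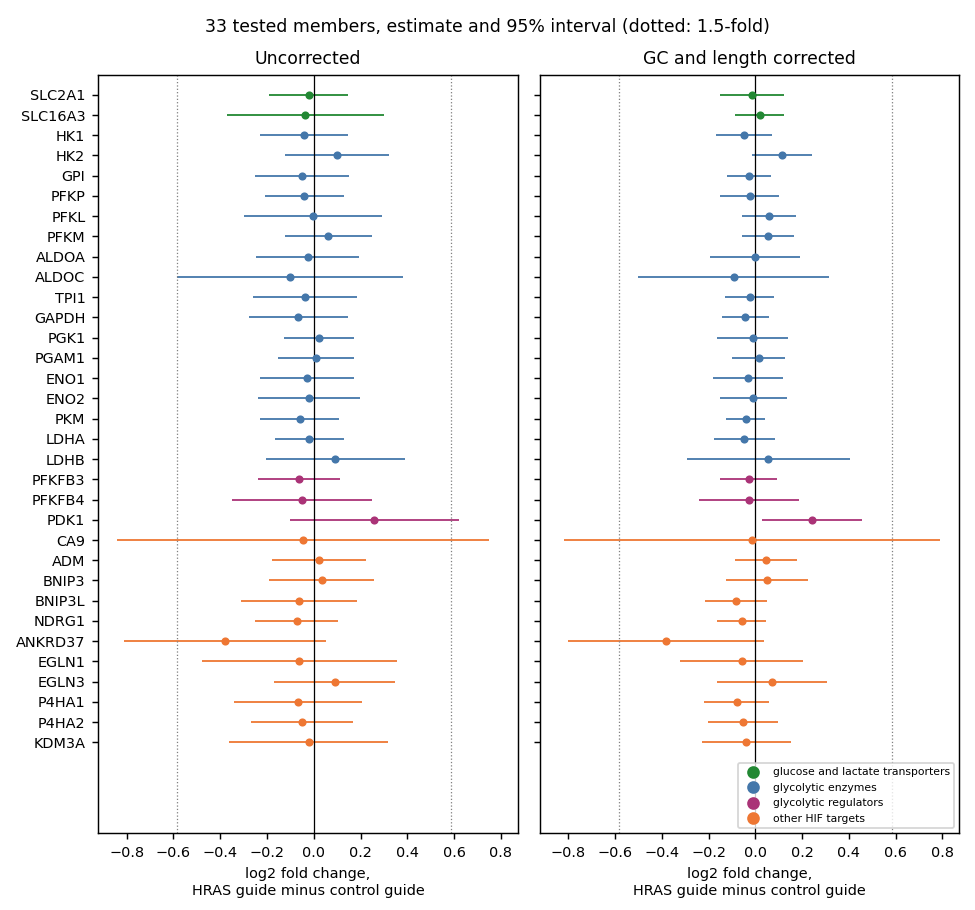
Log2 fold change (HRAS guide minus control guide) of the 33 tested genes with 95% intervals, uncorrected at left and after the GC and length correction at right, coloured by role, with dotted lines at a 1.5-fold difference. Uncorrected, all 33 intervals span 0, and after the correction that of PDK1 (0.24 ± 0.10, SE) does not.

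Among the transporters, SLC2A1 (GLUT1, the basal glucose importer of many tumour cells; chromosome 1, 42925375 to 42959176) stood at 152, 151 and 153 CPM with the control guide and at 154, 146 and 148 CPM with the HRAS guide. All 6 libraries lay close together, and the log2 fold change was -0.02 ± 0.08. SLC16A3 (MCT4, a lactate exporter) stood at 381, 600 and 429 CPM against 495, 408 and 472 CPM. It was highest in control replicate 2, has the highest GC content of the set at 65.6%, and had a log2 fold change of -0.04 ± 0.15. SLC2A3 (GLUT3, a high-affinity glucose importer) stood at 0.277, 0.145 and 0.132 CPM against 0.563, 0.239 and 0.154 CPM, overlapping and too low to test.

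The upper steps of glycolysis begin with the hexokinases, which trap glucose as glucose-6-phosphate. HK1 stood at 115, 128 and 115 CPM with the control guide and at 121, 113 and 114 CPM with the HRAS guide. HK2, the isozyme often raised in tumours (chromosome 2, 74833981 to 74893359), stood at 41.1, 34.8 and 39.5 CPM against 39.7, 42.3 and 41.4 CPM. Both genes overlapped between groups, with log2 fold changes of -0.04 ± 0.08 for HK1 and 0.10 ± 0.10 for HK2. After the correction the HK2 libraries separated, at 39.0, 36.3 and 39.1 against 40.7, 41.7 and 41.5 corrected CPM, but the log2 fold change of 0.11 ± 0.06 did not pass (edgeR adjusted p = 0.876). HK2, PKM and ANKRD37 were the 3 of 33 genes (9.09%) whose corrected libraries did not overlap, against 12.3% of all genes. GPI, which turns glucose-6-phosphate into fructose-6-phosphate, averaged 291 ± 31.2 and 281 ± 8.12 CPM (SD, n = 3), a log2 fold change of -0.05 ± 0.09.

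Phosphofructokinase commits the sugar to glycolysis, and its 3 genes were all expressed. PFKP (platelet type) stood at 159, 170 and 162 CPM against 161, 156 and 160 CPM. PFKL (liver type) stood at 253, 376 and 289 CPM against 323, 280 and 314 CPM. PFKM (muscle type) stood at 63.9, 67.3 and 66.7 CPM against 70.0, 69.5 and 67.2 CPM. In PFKM only 1 HRAS guide library lay below the highest control library, and PFKL was widest in the control group, with replicate 2 highest. The log2 fold changes were -0.04 ± 0.08 for PFKP, -0.0021 ± 0.13 for PFKL and 0.06 ± 0.08 for PFKM.

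Aldolase cleaves fructose-1,6-bisphosphate. ALDOA stood at 20.5, 22.5 and 21.0 CPM against 20.7, 20.1 and 22.0 CPM, and ALDOC at 2.46, 3.805 and 3.74 CPM against 3.58, 2.46 and 3.29 CPM. The groups overlapped for both, with log2 fold changes of -0.03 ± 0.10 and -0.10 ± 0.22. The ALDOA values are uncertain, because 93.8% of its coding bases are shared on the same strand with the annotated gene AC093512.2, which held 580 counts against 3668 for ALDOA. TPI1, which interconverts the triose phosphates, averaged 450 ± 58.4 and 438 ± 24.8 CPM (SD, n = 3), a log2 fold change of -0.04 ± 0.10.

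The lower steps, which yield ATP, held the most abundant members as counted. GAPDH stood at 1367, 1774 and 1534 CPM against 1579, 1426 and 1464 CPM. ENO1 stood at 1726, 2192 and 1871 CPM against 1987, 1800 and 1880 CPM, and ENO2 (the neuronal enolase) at 33.2, 37.2 and 32.5 CPM against 34.6, 34.3 and 32.5 CPM. All 3 were highest in control replicate 2 and overlapped between groups, with log2 fold changes of -0.07 ± 0.09, -0.03 ± 0.09 and -0.02 ± 0.10. PKM (chromosome 15, 72199029 to 72231822) stood at 1817, 2153 and 1931 CPM against 1954, 1823 and 1882 CPM, a log2 fold change of -0.06 ± 0.08. After the correction its HRAS guide libraries (1899, 1911 and 1875 CPM) all lay below the control libraries (1939, 1958 and 1956 CPM), a log2 fold change of -0.04 ± 0.04 that did not pass (edgeR adjusted p = 0.964). PGK1 and PGAM1, phosphoglycerate kinase and mutase, averaged 450 and 228 CPM with the control guide and 456 and 229 CPM with the HRAS guide.

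Lactate dehydrogenase regenerates NAD+ from NADH as it makes lactate. LDHA stood at 713, 727 and 749 CPM against 714, 738 and 709 CPM, a log2 fold change of -0.02 ± 0.07, whose 95% interval of -0.16 to 0.13 was the narrowest of the 33. LDHB, the heart-type subunit, stood at 8.17, 10.9 and 8.73 CPM against 10.2, 9.53 and 9.89 CPM, overlapping, with 0.09 ± 0.13. The LDHB values are uncertain too, because 93.5% of its coding bases are shared on the same strand with AC010197.2, which held 2 counts. How reads in shared bases were counted is not stated, so the low count of AC010197.2 does not remove the doubt.

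Of the regulators, PFKFB3 and PFKFB4 set the level of fructose-2,6-bisphosphate, the activator of phosphofructokinase. PFKFB3 (chromosome 10, 6144934 to 6254644) stood at 191, 212 and 202 CPM against 200, 189 and 190 CPM, and PFKFB4 at 15.8, 22.2 and 19.6 CPM against 17.2, 19.6 and 18.8 CPM. Both overlapped between groups, with log2 fold changes of -0.06 ± 0.08 and -0.05 ± 0.13. PDK1, the kinase that keeps pyruvate out of the mitochondrial citrate cycle by inhibiting pyruvate dehydrogenase (chromosome 2, 172555373 to 172608669), stood at 34.2, 21.2 and 26.5 CPM against 30.9, 36.3 and 30.7 CPM. Control replicate 1 lay within the HRAS guide range and the other control libraries below it. The log2 fold change was 0.26 ± 0.16 uncorrected and 0.24 ± 0.10 corrected, where PDK1 alone of the 33 had an unadjusted p under 0.05 (edgeR unadjusted p = 0.030, adjusted p = 0.763), against 5.82% of all genes. An opposite-strand gene, AC078883.1 (702 counts), covers 14.3% of the coding bases of PDK1 (5204 counts).

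Among the other HIF targets the low genes had the widest intervals. ANKRD37, an ankyrin repeat protein (chromosome 4, 185396021 to 185400628), stood at 2.04, 2.07 and 2.05 CPM with the control guide and at 1.81, 1.37 and 1.57 CPM with the HRAS guide. It was the only member of the 33 (3.03%) whose groups did not overlap, against 8.81% of all genes, of which 4% had the HRAS guide below. The difference, -0.38 ± 0.19 on the log2 scale, did not pass (edgeR unadjusted p = 0.079, 95% interval -0.81 to 0.05). ANKRD37 rests on 314 counts in all, and 42.6% of its coding bases lie opposite UFSP2 (1962 counts), whose reads cannot be told apart without a stated strand. CA9, the cell-surface carbonic anhydrase IX widely used as a hypoxia marker, had 118 counts in all and 39.1% of its coding bases opposite ARHGEF39 (5294 counts). Its levels were 0.623, 0.797 and 0.661 CPM against 0.563, 0.990 and 0.461 CPM, and its log2 fold change was -0.05 ± 0.36.

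The oxygen sensors EGLN1 (PHD2) and EGLN3 (PHD3) are themselves HIF targets. EGLN1 stood at 9.41, 6.05 and 7.71 CPM against 5.87, 8.20 and 8.08 CPM. EGLN3 stood at 8.65, 10.04 and 8.70 CPM against 9.45, 9.63 and 10.02 CPM. Neither separated the groups, with log2 fold changes of -0.06 ± 0.19 and 0.09 ± 0.12. P4HA1 and P4HA2, the catalytic subunits of collagen prolyl 4-hydroxylase, stood at 33.01, 25.5 and 31.0 against 26.0, 30.9 and 28.5 CPM and at 48.6, 53.4 and 48.6 against 50.9, 50.4 and 44.3 CPM. Their log2 fold changes were -0.07 ± 0.12 and -0.05 ± 0.10, with overlapping groups. NDRG1, a stress-responsive gene, stood at 203, 228 and 212 CPM against 206, 198 and 209 CPM, a log2 fold change of -0.07 ± 0.08.

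The remaining HIF targets also overlapped between groups. KDM3A, a histone H3 lysine 9 demethylase, averaged 47.9 ± 10.5 and 47.1 ± 3.14 CPM (SD, n = 3). The mitophagy receptor genes BNIP3 and BNIP3L averaged 20.3 and 45.6 CPM with the control guide and 20.8 and 43.7 CPM with the HRAS guide. ADM, which encodes the vasodilator peptide adrenomedullin, averaged 97.5 and 99.1 CPM. Log2 fold changes of these 4 genes ran from -0.06 ± 0.11 (BNIP3L) to 0.03 ± 0.10 (BNIP3). Annotated pseudogenes named for BNIP3 (44 of them) held 6.01% as many counts as BNIP3, and those named for GAPDH (65) 0.414% as many as GAPDH.

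Glycolytic enzymes and other HIF targets were compared as lists. The median log2 fold change was -0.03 over the 17 enzymes (5 above 0, 12 below) and -0.05 over the 11 other HIF targets (3 above, 8 below), a difference of 0.02. After the GC and length correction the medians were -0.02 and -0.05, with the same counts above and below 0. Scaled by library totals alone, 8 enzymes were above 0 and 9 below, with a median of -0.0022. No test was made of either median, and both stand beside the median of -0.0014 over all genes.

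**Figure D3:**
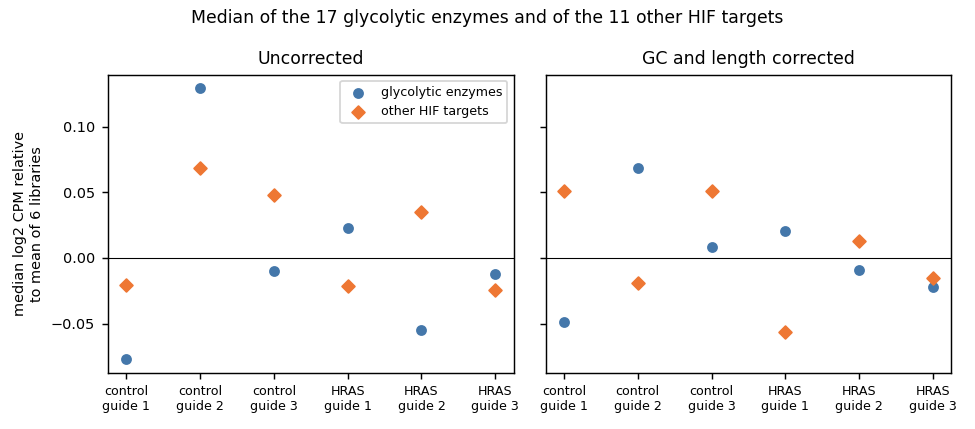
Median log2 CPM relative to the mean of 6 libraries, over the 17 glycolytic enzymes (circles) and the 11 other HIF targets (diamonds), in each library before and after the GC and length correction. Uncorrected, the enzyme median was highest in control replicate 2 (0.13) and lowest in control replicate 1 (-0.08), and the HRAS guide libraries lay between them.

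The spread of these medians within the control group exceeded the difference between groups. Relative to the mean of all libraries, the enzyme median was -0.08, 0.13 and -0.01 in control replicates 1 to 3 and 0.02, -0.05 and -0.01 in HRAS guide replicates 1 to 3. That of the other HIF targets was -0.02, 0.07 and 0.05 against -0.02, 0.03 and -0.02. Control replicate 2 was the highest library for 19 of the 33 genes and for 12 of the 17 enzymes. Without it the enzyme median was 0.03, with 14 of 17 above 0, and without HRAS guide replicate 2 it was 0.0033. Without control replicate 1 the difference between the lists was -0.05, and without HRAS guide replicate 1 the median of the other HIF targets was -0.0054.

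These library differences ran with the GC content of the members, which spans 40.2% (P4HA1) to 65.6% (SLC16A3). Across the 33 genes, given as a description, rho between GC content and relative level was -0.56, 0.63 and -0.11 in control replicates 1 to 3 and 0.23, -0.59 and -0.17 in HRAS guide replicates 1 to 3. The points of a library share its depth and preparation. GC-poor members such as PDK1, KDM3A and EGLN1 were low in control replicate 2, where GC-rich SLC16A3 and PFKL were high. Not every member followed this: LDHB, at 44.0% GC, was highest in that library (0.19), and LDHA, at 45.4% GC, lay near its mean (0.005). The correction reduced the SD over the 6 libraries in 22 of the 33 genes. Over all 33 the median SD went from 0.101 to 0.0758 on the log2 scale. Elsewhere the SD grew, for example for PGK1 (0.022 to 0.103), LDHA (0.031 to 0.085) and LDHB (0.15 to 0.24). Corrected levels gave rho values of 0.06, -0.22 and 0.22 for the control libraries. Those of the HRAS guide libraries were -0.22, 0.33 and -0.28. Only HRAS guide replicate 3 kept the sign of its uncorrected rho. The libraries were also split, after seeing the data, by the sign of the GC trend over all genes, which leaves a single library in 1 arm of each set, so the values carry no error. Where that trend was negative (HRAS guide replicate 2 against control replicates 1 and 3), the enzyme median differed by 0.0028 between guides. Where it was positive (HRAS guide replicates 1 and 3 against control replicate 2), it differed by -0.12. For the other HIF targets these within-set differences were -0.05 and -0.03. After the correction they were -0.0017 and -0.05 for the enzymes and -0.05 and -0.04 for the other HIF targets.

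**Figure D4:**
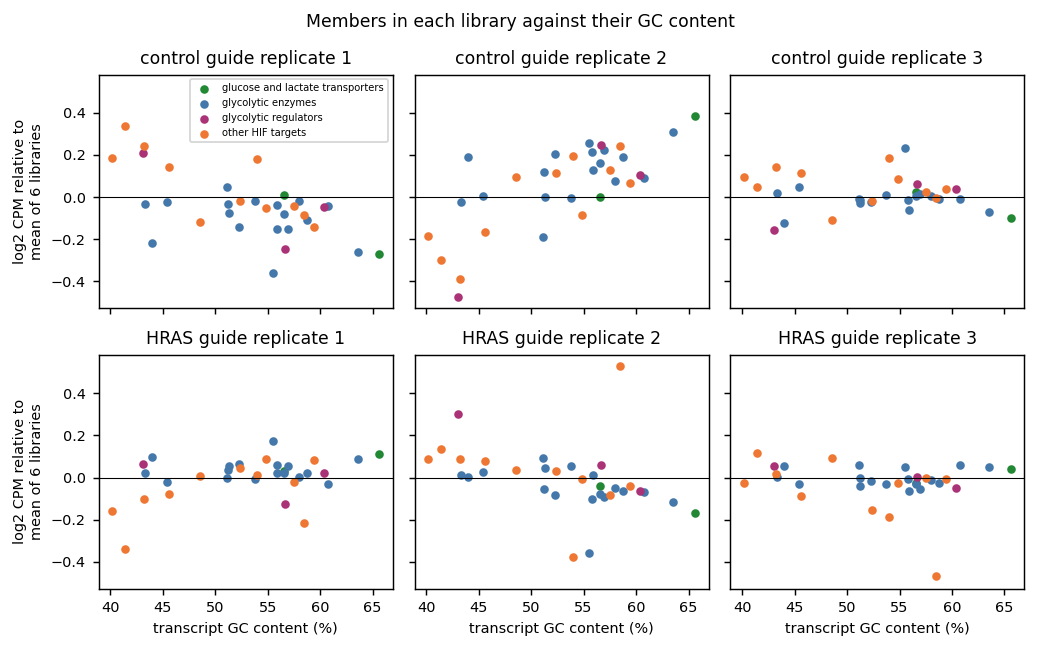
Log2 CPM of each of the 33 tested genes relative to its mean over 6 libraries (vertical axis) against its transcript GC content in percent (horizontal axis), 1 panel per library, coloured by role. The points slope upward in control replicate 2 (rho 0.63) and downward in control replicate 1 (rho -0.56) and HRAS guide replicate 2 (rho -0.59).

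The uncorrected shares of the isozymes at each step overlapped between the guides, and the test used on them could not have called a difference. HK1 held 95.7% ± 0.574 of the summed HK1 and HK2 level per kb with the control guide and 95.3% ± 0.295 with the HRAS guide (SD, n = 3; exact two-sided permutation p = 0.4). Among the phosphofructokinases PFKP held 53.7% and 52.5%, PFKL 25.3% and 25.6%, and PFKM 21.0% and 22.0%. LDHA held 98.7% and 98.6% of lactate dehydrogenase, ENO1 98.5% in both groups of enolase, ALDOA 85.7% and 86.2% of aldolase, and SLC2A1 99.9% in both groups of the GLUT pair. The lactate dehydrogenase and aldolase shares are uncertain, because most coding bases of LDHB and ALDOA are shared with another gene on the same strand. The regulator PFKFB3 held 81.3% and 81.1% beside PFKFB4, EGLN3 87.6% and 88.8% beside EGLN1, and P4HA1 15.03% and 14.9% beside P4HA2. With 3 against 3 libraries the smallest possible two-sided p is 0.1, so no share could pass, and over the 11 shares the Benjamini-Hochberg adjusted values were 0.917 or more. After the correction HK1 reached this smallest p (exact permutation p = 0.1). The shares depend on the length scale: per kb of the longest transcript HK1 held 81.7% and 80.3%, P4HA1 41.1% and 40.9%, PFKP 46.2% and 45.1%, and PFKL 39.4% and 39.8%. In counts without length scaling PFKL held the larger share, 56.8% and 57.2%, and PFKP 30.8% and 29.8%, so which phosphofructokinase gene led is not settled by these data.

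**Figure D5:**
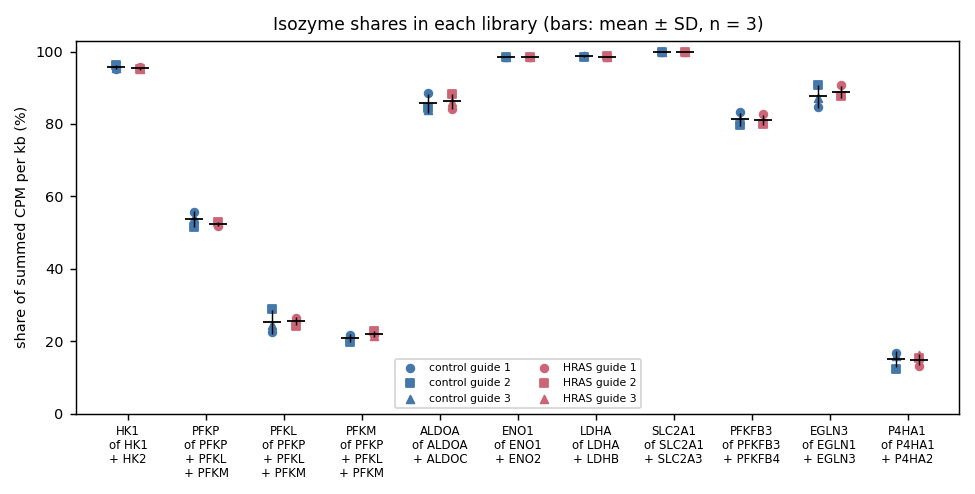
Share of each named isozyme in the summed CPM per kb of its family, in percent, with a point per library and the mean ± SD of 3 libraries per group. The groups overlap in all 11 shares, for example HK1 at means of 95.7% and 95.3%.

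The HIF subunits and the other genes of the pathway were read from lists that share no gene with the 34. HIF1A, the oxygen-labile alpha subunit, stood at 643, 386 and 576 CPM against 466, 579 and 503 CPM, lowest in control replicate 2, with a log2 fold change of -0.05 ± 0.16. EPAS1 (HIF-2 alpha) averaged 209 and 205 CPM and ARNT 52.6 and 50.2 CPM, with log2 fold changes of -0.03 ± 0.09 and -0.07 ± 0.13. Of the 18 tested HIF subunits and regulators 0 passed (6 above 0, 12 below, median -0.04). The smallest unadjusted p values belonged to CREBBP (-0.14, edgeR unadjusted p = 0.104), SIAH1 (-0.18) and CITED2 (-0.13). With the GC and length correction 0 of the 18 passed either (smallest edgeR adjusted p = 0.544). There 3 of the 18 had an unadjusted p under 0.05, against 5.82% of all genes. They were CREBBP (-0.16), EGLN2 (0.23) and CITED2 (-0.13). HIF is regulated largely at the protein level, which RNA counts do not measure.

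Of 34 other HIF-induced genes tested, 0 passed by edgeR, with 17 above 0, 17 below and a median of -0.0026. BHLHE40, a HIF-induced transcriptional repressor that also acts in the circadian clock, stood at 157, 146 and 162 CPM with the control guide and at 114, 121 and 118 CPM with the HRAS guide. All HRAS guide libraries of BHLHE40 lay below all control libraries, and the log2 fold change of -0.40 ± 0.08 did not pass by edgeR (adjusted p = 0.448). It passed by DESeq2 (adjusted p = 0.022) and by edgeR with the GC and length correction (adjusted p = 0.016), and by edgeR without control replicate 2 (adjusted p = 0.014). BHLHE40 did not pass by limma-voom or by edgeR with other scalings or filters. Nor did it pass with a block for replicate number, with or without the correction. With the correction BHLHE40 still passed without control replicate 1 or 2, but not without control replicate 3 or any 1 of the HRAS guide libraries. TMEM45A, also among those of smallest p, had a log2 fold change of 0.27 (edgeR unadjusted p = 0.059). Of 41 tested genes for other isozymes and neighbouring carbon metabolism 0 passed (17 above 0, 24 below, median -0.02), the smallest p values being those of HK3 (-1.22 ± 0.48, at means of 0.780 and 0.327 CPM), PFKFB1 (0.51) and TIGAR (-0.35).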

How the data were processed

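The deposited values were counts per gene, whole numbers without normalization, in a table of 60664 rows with Ensembl identifiers, of which 1 blank row was left out. Per the submitters' processing notes HISAT2, StringTie, DESeq2 and hg38 were used, with no roles or versions. The sources used here do not give the counting step, its annotation or the strandedness. Symbols were found for 60462 identifiers. Coordinates, GC content and lengths came from GENCODE release 29 (GRCh38).

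Counts were filtered with filterByExpr, scaled by TMM and compared with the two-sided quasi-likelihood test of edgeR 4.0.16 (R 4.3.3) on group alone, with Benjamini-Hochberg adjustment over all 19836 genes tested and a threshold of 0.05. Errors of fold changes are SE, and CPM use TMM-adjusted library sizes. For the GC and length correction, log2 CPM (prior count 2, genes above a mean log2 CPM of 1) was regressed robustly (MASS 7.3.60.0.1) in every library on splines with 5 and 4 degrees of freedom, and the fit entered edgeR as offsets. Other alternatives were DESeq2 1.42.0, limma-voom (limma 3.58.1), other scalings and filters, a replicate block and leaving out each library. Scripts were tested on simulated data.

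The members, the lists and the naming rule were chosen with earlier results of these data known. All members, HRAS, HIF1A, EPAS1 and ARNT are named, and from each other list those that passed or, where none did, the 3 with the smallest p. Values per library are given for isozyme families and the 8 members of smallest p, and for a few more. A gene that this rule selects is not reported here.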

Additional observations from a re-analysis of the deposited data

How the results depend on the processing

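In all 22 settings run, 0 members passed. Of the 33, 0 to 12 changed sign in a setting, with 12 without control replicate 2. The smallest adjusted p of a member by edgeR was 0.151, with the GC and length correction and without control replicate 1. The median of the enzymes ran from -0.06 to 0.03 with 1 library left out, that of the other HIF targets from -0.078 (without HRAS guide replicate 2) to -0.0054 (without HRAS guide replicate 1), and the difference of the medians from -0.054 (without control replicate 1) to 0.081 (without HRAS guide replicate 2). The number of genes called over the whole table was 2 in the main analysis. It was 25 by DESeq2, 57 with no filter, 39 with the GC and length correction, and 1 each by limma-voom, with DESeq2 size factors and with a filter of 1 CPM. Leaving out 1 library gave 1 to 24 genes. With the correction, leaving out control replicates 1 to 3 gave 35, 130 and 14 genes, and leaving out HRAS guide replicates 1 to 3 gave 7, 17 and 7. This use of the correction, and the sets of libraries by GC trend, were chosen after seeing the data. The cause of these differences in counts was not tested. Same-numbered libraries had correlations of -0.19, -0.29 and -0.06 in their uncorrected deviations from the group means. These deviations carry the GC trends of the libraries, so they cannot show whether replicate numbers pair the libraries, which the labels do not state. The replicate block called 1 gene, and 6 together with the GC and length correction. Low counts limit SLC2A3, CA9 and ANKRD37.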
